A study of Mus musculus with 11 samples.

Results

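Genes that control cell growth through mTOR, the tuberous sclerosis complex and Ras were followed through libraries of RNA fragments precipitated with FMRP, whose loss causes Fragile X syndrome. They are Mtor, Rptor, Rictor, Tsc1, Tsc2, Nf1, Ulk1 and Ulk2, taken as the rows of the deposited count table that carry these symbols. All 8 have a row among the 30986 of the table, and 8 of 8 passed the filter on low counts that left 1720 rows for testing. The fragments came from brain tissue of mice at postnatal day 13, ground in liquid nitrogen, crosslinked with 3 doses of 400 mJ at 254 nm and precipitated with FMRP. Of 11 libraries, 2 are labelled cerebellum, 3 cortex and 5 hippocampus, and the last is cortex by its title but hippocampus by its tissue label. The labels name no treatment beyond the crosslinking that all share. The sources used here do not give strain, sex, genotype or number of animals. Counts of hippocampus 1 and 2 agree within sampling noise, so these libraries were summed as hippocampus 1+2, which left 9 samples, and "forebrain" below means the 7 cortex and hippocampus samples.

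The kinase mTOR works in a pair of complexes. With Raptor, the product of Rptor, it forms mTORC1, which promotes protein synthesis and restrains autophagy, and with Rictor it forms mTORC2, which acts on Akt and the cytoskeleton. Tsc1 (hamartin) and Tsc2 (tuberin) form the complex that switches off Rheb, the activator of mTORC1. Neurofibromin, the product of Nf1, is a GTPase-activating protein that switches off Ras, and Ulk1 and Ulk2 are the kinases that start autophagy when mTORC1 is inactive. In neurons these genes bear on protein synthesis at synapses, the process in which FMRP acts as a repressor, and loss of Tsc1, Tsc2 or Nf1 causes tuberous sclerosis or neurofibromatosis.

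The genes lie on 6 mouse chromosomes in GRCm38, the assembly that the submitters' notes name as mm10. Nf1 is at chr11:79339693-79581612 on the plus strand, Rptor at chr11:119602905-119899576 on the plus strand and Ulk2 at chr11:61775649-61855073 on the minus strand. Mtor is at chr4:148448611-148557683 (plus), Rictor at chr15:6708379-6800401 (plus) and Tsc1 at chr2:28641228-28691167 (plus). Tsc2 is at chr17:24595816-24632630 and Ulk1 at chr5:110784488-110810097, both on the minus strand. Because the sources used here do not say whether counting used strand, overlapping genes matter. Tsc2 shares 693 exonic bases with Pkd1, the polycystin gene on the opposite strand, which had 251 counts over the 9 samples against 169 for Tsc2, so reads of these genes cannot be told apart in that stretch. Rptor shares 84 exonic bases with the antisense RNA Rptoros, which had 4 counts. The introns of Nf1 hold Omg (22 counts), AU040972 (4 counts) and Evi2a (2 counts) on the opposite strand, against 708 counts for Nf1.

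The table holds counts per gene and no positions of fragments. To show what the coding sequences of the genes offer, they were searched for TGGA and AGGA, 4-letter words that earlier work has tied to FMRP binding, on the mRNA strand only and with overlapping matches counted. Shown are the coding stretches of 60 bases within a single exon that hold the most matches, for Nf1 (the gene with the most fragments), Mtor (the kinase itself), Tsc2 (the richest stretch of the 8 genes) and Ulk1 (the gene with the fewest matches per kilobase). They are written 5′ to 3′ along the mRNA as DNA letters from the GENCODE M21 transcripts, with the matches in capitals.
Nf1: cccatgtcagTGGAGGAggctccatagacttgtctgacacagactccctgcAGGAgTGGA
Mtor: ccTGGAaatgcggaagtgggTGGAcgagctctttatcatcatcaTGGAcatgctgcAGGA
Tsc2: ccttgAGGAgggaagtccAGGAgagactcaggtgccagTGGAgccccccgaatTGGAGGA
Ulk1: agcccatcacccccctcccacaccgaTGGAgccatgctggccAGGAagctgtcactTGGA
The Nf1 stretch, at chr11:79443812-79443871 in exon 21 of 58, holds 4 matches, and so does the Mtor stretch at chr4:148469375-148469434 in exon 16 of 58. The Tsc2 stretch at chr17:24600393-24600452 (minus strand, exon 33 of 42) holds 5, and the Ulk1 stretch at chr5:110791083-110791142 (minus strand, exon 17 of 28) holds 3. Of 102039 adjoining windows of 60 bases that tile the coding sequences of 1634 tested genes, 59.9% hold at least 1 match. At least 3 are held by 7.27%, at least 4 by 1.91% and at least 5 by 0.516%. These are shares of windows, while the stretches shown are the richest of their genes. The share of genes whose richest stretch holds as many was not counted, so these stretches cannot be called unusual. A match is a description of the letters and not a binding site.

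Over whole coding sequences the 8 genes had no common density of these words. Tsc1 had 20.1 matches per kilobase (70 in 3483 bases), above 84.1% of the tested genes, and Tsc2 had 17.1 per kilobase. Ulk1 had 11.7 per kilobase (37 in 3171 bases), above 9.61%, and Rictor 12.1, above 12.5%. Nf1, at 14.3 per kilobase (122 in 8523 bases), and Mtor, at 14.0 (107 in 7647 bases), lay below the median of 16.02. For a second pair of words tied to FMRP, ACTT and ACTG, Nf1 and Tsc1 both had 10.3 matches per kilobase against a median of 8.2. The coding sequences also differed in base composition, from 44.7% G and C in Nf1 to 59.3% in Ulk1. Across tested genes the Pearson r of TGGA and AGGA density with log2 level per kilobase was 0.016, a description over genes that share the same libraries and are not independent replicates. All 8 coding sequences are longer than those of 52.4% of the tested genes. This hardly sets them apart, since the shortest, Ulk2 at 3111 bases, lay close to the median of 2959.5 bases.

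Counts per library ran from 11898 in cortex 3 to 197382 in cerebellum 2, and levels are given as CPM, the counts of a gene per 1000000 counts of its library. The limit that a count of 0 allows, 3 counts, was 15.2 CPM in cerebellum 2 and 252 CPM in cortex 3; these floors, and all intervals on levels, are at the 95% level and cover counting error only. The tissue labels were checked against marker genes. Fat2, a cadherin of cerebellar granule cells, ran from 2786 to 4086 CPM in cerebellum and from 0 to 420 CPM in forebrain, and Gabra6, a GABA-A receptor subunit of the same cells, was at 0 in every cortex sample. Camk2a, a kinase subunit of forebrain excitatory neurons, was at 41.9 and 50.7 CPM in cerebellum and from 336 to 2554 CPM in forebrain. Summed over their lists, granule cell markers ran from 6089.7 to 7491 CPM in cerebellum and 228 to 882 in forebrain (Gabra6, Cbln3 and Zic2 at 0 in cortex), and Purkinje cell markers from 3185 to 3587 and 597 to 1302 CPM (Pcp2 at 0 in cortex). Hippocampal neuron markers ran from 1322 to 3065 CPM in hippocampus, 651 to 914 CPM in cortex and 1150.0 to 1289 CPM in cerebellum, so this list set cortex apart but hardly cerebellum. Between cerebellum and forebrain, astrocyte markers ran from 1429 to 1540.0 and 1261 to 5341 CPM, oligodendrocyte markers from 869.5 to 1267 and 252 to 836 CPM, microglial markers from 83.8 to 117 and 32.6 to 153 CPM, and endothelial and blood markers from 31.4 to 117 and 0 to 128 CPM. The part of these cell types in the results was not tested. Cortex 3, hippocampus 3 and hippocampus 4 stand apart: rows with predicted gene names took 12.5% of counts in cortex 3, 12.6% in hippocampus 3 and 12.2% in hippocampus 4, against 3.1 to 7.49% in the other samples.

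Nf1 had the highest mean level of the 8 genes, also per length. Its mean over the 9 samples was 97.3 CPM per kilobase of its longest transcript (11917 bases), rank 125 of 1669 tested rows with a length, and 1159 CPM without regard to length. Ulk2 followed with 60.6 CPM per kilobase (rank 285), then Tsc2 with 37.5 (rank 650) and Mtor with 29.1 (rank 952), around the median of 31.7 over tested rows. Ulk1 had 26.0, Tsc1 18.3, Rptor 17.9 and Rictor 15.0 CPM per kilobase, the last above only 7.07% of tested rows. Ulk2 lay above Nf1 per kilobase of transcript in 1 of the 9 samples, hippocampus 3. Per kilobase of coding sequence Nf1 (136) and Ulk2 (112) had the highest means, but Ulk2 lay above Nf1 in 5 of the 9 samples, so their order depends on the sample and on the length used. The order below them changed, with Tsc2 at 43.3, Ulk1 at 42.8, Tsc1 at 40.5, Mtor at 32.6, Rptor at 29.4 and Rictor at 27.2, against a median of 69.3. These levels have no input library beside them, so the amount of an RNA and its binding by FMRP cannot be told apart, nor can fewer cells of a type and less RNA per cell.

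**Figure D1:**
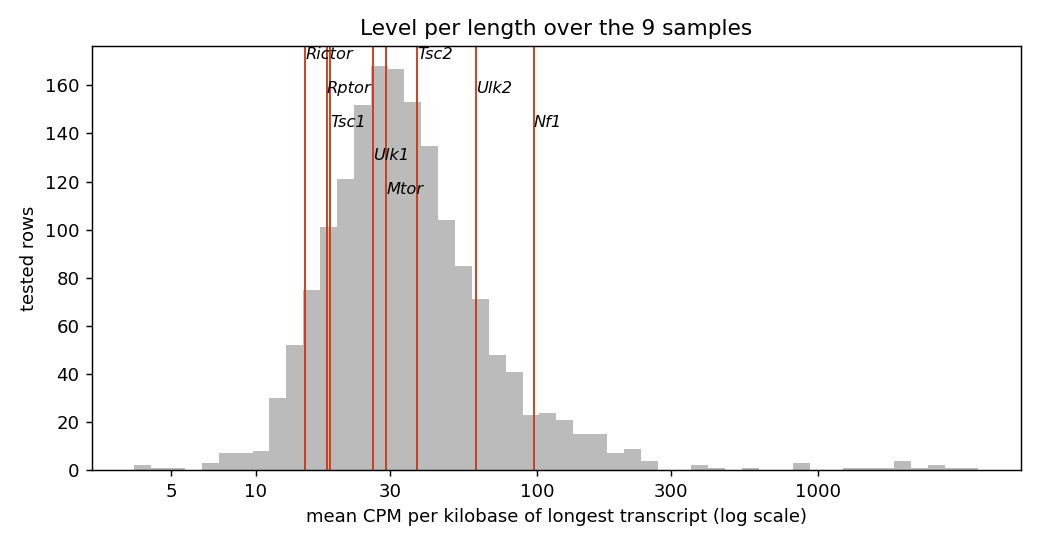
Mean level of tested rows over the 9 samples, in CPM per kilobase of the longest transcript (x axis, log scale), against the number of rows (y axis, grey bars); red lines mark the 8 genes. Nf1 at 97.3 and Ulk2 at 60.6 lie right of the median of 31.7, and Rictor, Rptor and Tsc1 lie left of it at 15.0 to 18.3.

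Neurofibromin is the Ras arm of the group and had the deepest counts, from 9 to 204 a sample. Nf1 was at 1016 and 1034 CPM in cerebellum 1 and 2, at 1497, 1918 and 756 CPM in cortex 1, 2 and 3, and at 1236, 205, 684 and 2090.0 CPM in hippocampus 1+2, 3, 4 and 5. The cerebellum samples were nearly equal and lay inside the range of both other regions, which overlapped each other. Hippocampus 3 was the lowest by far (24 counts, 95% interval 131 to 304 CPM), and hippocampus 5 the highest (45 counts, 1524 to 2797 CPM), although both carry the same label. Region means were 1391 ± 588 CPM in cortex (SD, n = 3), 1053 ± 809 in hippocampus (n = 4) and 1025 ± 12.3 in cerebellum (n = 2), so neighbours in that order differed by less than their spread. In 8 of the 9 samples Nf1 ranked between 24 and 53 among all rows of its library, and in hippocampus 3 it ranked 405. Within the 8 genes Nf1 took from 23.1% of the counts in hippocampus 3 to 62.5% in hippocampus 5.

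The mTOR complexes had fewer counts. Mtor was at 283 and 309 CPM in cerebellum, at 260.4, 359 and 168 CPM in cortex 1, 2 and 3, and at 414, 85.2, 182 and 186 CPM in hippocampus 1+2, 3, 4 and 5. Its highest and lowest values thus both came from hippocampus, and the region means of 296 ± 18.5 (n = 2), 262 ± 95.2 (n = 3) and 217 ± 140 CPM (SD, n = 4) in cerebellum, cortex and hippocampus differed by less than the forebrain spread. Rptor, the mTORC1 scaffold that recruits substrates, was at 147 and 182 CPM in cerebellum, at 65.1, 197 and 84.0 CPM in cortex, and at 192, 102, 91.1 and 0 CPM in hippocampus. The 0 of hippocampus 5 allows up to 139 CPM, a limit above the values of cortex 1, cortex 3, hippocampus 3 and hippocampus 4. Rictor, the mTORC2 subunit, was at 147 and 162 CPM in cerebellum, at 195, 161 and 168 CPM in cortex, and at 123, 68.2, 45.6 and 186 CPM in hippocampus. The 3 cortex values of Rictor had a mean of 175 CPM and an SD of 18.0. Those of cerebellum had a mean of 154 CPM and an SD of 10.9 (n = 2). Cortex 1, 2 and 3 held only 6, 9 and 2 Rictor counts. Their 95% intervals were 71.7 to 425, 73.8 to 306 and 20.4 to 607 CPM. Counting error thus exceeds the SD, so whether Rictor is even across cortex cannot be judged. Hippocampus 4 had 1 Rictor count (1.15 to 254 CPM). Hippocampus 5 and cerebellum 2 lay within the range of the cortex values.

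For the tuberous sclerosis pair, Tsc1 was the only gene of the 8 whose samples separated a pair of regions on plain CPM, and they overlapped once CPM was divided by the TMM scaling factors that the test uses. Tsc1 was at 163, 179 and 336 CPM in cortex and at 92.1, 34.1, 137 and 92.9 CPM in hippocampus, with 105 and 132 CPM in cerebellum. Each cortex sample thus lay above each hippocampus sample, a pattern shown by 2.44% of the 1720 tested rows (the reverse by 1.45%), and the counts behind it were small: 5, 10 and 4 in cortex and 12, 4, 3 and 2 in hippocampus. On plain CPM the cortex samples also lay above both cerebellum samples, and the share of tested rows with that pattern was not counted. With TMM factors, cortex ran from 129 to 345 CPM and hippocampus from 52.9 to 177 CPM, with hippocampus 4 above cortex 1 and 2. Cerebellum 2, at 134 CPM, then also lay above cortex 1. On plain CPM Tsc1 averaged 226 ± 95.7 CPM in cortex (SD, n = 3), 118 ± 19.1 in cerebellum (n = 2) and 88.9 ± 42.1 in hippocampus (n = 4). Tsc2 was at 283 and 223 CPM in cerebellum, at 293, 215 and 168 CPM in cortex, and at 414, 102, 137 and 279 CPM in hippocampus. Its region means were close, at 253 ± 42.4 (n = 2), 225 ± 63.1 (n = 3) and 233 ± 143 CPM (SD, n = 4), and all regions overlapped.

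Of the autophagy kinases, Ulk2 had the higher level and the wider range. It was at 471 and 324 CPM in cerebellum, at 684, 287 and 84.0 CPM in cortex 1, 2 and 3, and at 468, 170.5, 273 and 372 CPM in hippocampus 1+2, 3, 4 and 5. Cortex held both the highest value, with 21 counts, and the lowest, with 1 count (95% interval 2.13 to 468 CPM). Ulk1 was at 136 and 147 CPM in cerebellum, at 65.1, 71.7 and 252 CPM in cortex, and at 199.5, 119, 91.1 and 139 CPM in hippocampus, with 2, 4 and 3 counts in the cortex samples. Its region means were close, from 130 ± 106 CPM in cortex (SD, n = 3) to 142 ± 7.59 CPM in cerebellum (n = 2).

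**Figure D2:**
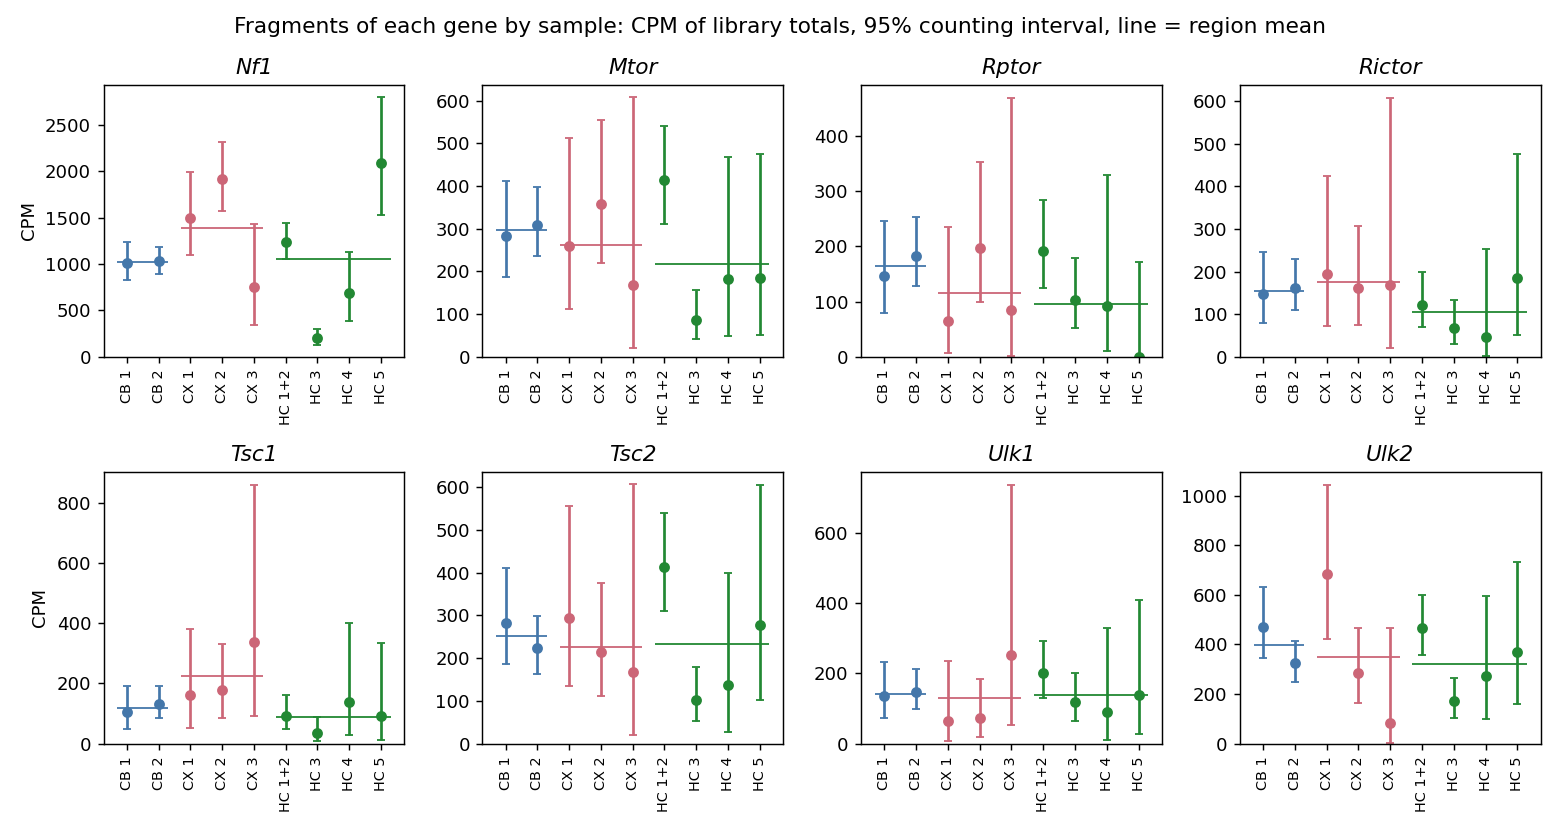
CPM of each gene (y axis, one panel per gene, scales differ) in the 2 cerebellum (CB), 3 cortex (CX) and 4 hippocampus (HC) samples; points are samples, bars are exact Poisson 95% intervals for counting error, and horizontal lines are region means. The cerebellum points of Nf1 lie close together (1016 and 1034 CPM), while hippocampus 3 is low for Nf1 (205 CPM) and Mtor (85.2 CPM), and every cortex point of Tsc1 lies above every hippocampus point, which does not hold with TMM factors.

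The first comparison asked whether cerebellum differs from forebrain. No gene of the 8 was called: 0 of 8 passed an adjusted p of 0.05 in the edgeR quasi-likelihood test, against 7.67% of all tested rows (132 of 1720, with 3.9% higher and 3.78% lower in cerebellum). At an unadjusted p under 0.05 there were 310 rows and 0 of the 8 genes, and DESeq2 also called 0 of 8. The CPM of all 8 genes overlapped between cerebellum and forebrain, while 9.3% of tested rows had every cerebellum sample above forebrain and 4.3% every one below. The estimates, in which the numeric code of the sample titles is a block, were all above 0, with a median of 0.21 for the 8 genes against 0.002 for all tested rows. The largest was that of Nf1, 0.55 on the log2 scale (SE 0.55; edgeR adjusted p = 0.741), with a 95% interval from -0.53 to 1.64, or from 0.692-fold to 3.11-fold. Mtor had 0.39 (-0.68 to 1.47), Tsc1 0.33 (-1.11 to 1.78), Rictor 0.24 (-1.02 to 1.51) and Tsc2 0.18 (-0.88 to 1.25). Rptor had 0.15 (-1.11 to 1.41), Ulk1 0.14 (-1.13 to 1.41) and Ulk2 0.13 (-0.82 to 1.08). Each interval includes equal levels and also differences of 2.11-fold or more toward cerebellum, so these data do not show that the regions are alike. The intervals rest on a spread that edgeR pooled over all tested rows, not on the scatter of each gene's own samples. The smallest absolute log2 change among the 132 called rows was 1.45, while the SE of the 8 genes ran from 0.48 to 0.74.

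Several of these estimates changed sign without cerebellum 2 or hippocampus 3, the only samples of their title code. Within that code all 8 genes were higher in cerebellum on plain CPM, by log2 ratios from 0.30 (Ulk1) to 2.34 (Nf1), and 7 of 8 with TMM factors, up to 1.73 (Nf1) with Ulk1 at -0.31. Within the code of cerebellum 1, set against cortex 1 and hippocampus 1+2, 6 of the 8 were lower, from -0.12 (Rictor) to -0.43 (Nf1). Rptor (0.19) and Ulk1 (0.042) were higher there, while with TMM factors 5 were lower and Rictor was at 0.090. The shares of all tested rows with these signs were not counted, so the signs cannot be read as a trait of the 8 genes. The TMM factor was 0.644 in hippocampus 3 and 0.982 in cerebellum 2. Without hippocampus 3 the edgeR estimates were -0.21 for Nf1, -0.16 for Mtor, -0.14 for Tsc2 and -0.020 for Ulk2, and the other 4 genes did not pass the filter. Without cerebellum 2, Nf1 was also at -0.21, Mtor was at -0.14, Tsc2 at -0.13, Ulk2 at -0.035 and Tsc1 at -0.025. Ulk1 was at 0.19 there, and the other 2 did not pass the filter. Other samples also turned signs: Rptor was at -0.83 and Ulk1 at -0.25 without cortex 1, and Ulk2 at -0.018 without hippocampus 1+2. In both of these fits the other genes that passed the filter stayed above 0. Without the title code as a block 7 of the 8 estimates were still above 0, from 0.0031 (Tsc1) to 0.44 (Rptor), and Nf1 was at -0.080 (adjusted p = 0.960, edgeR). For Nf1 and Tsc1 the plain means also go against the blocked estimate, since Nf1 averaged 1025 CPM in cerebellum and 1198 in forebrain and Tsc1 118 and 148 CPM. Hippocampus 3 had 12.6% of its counts on predicted gene names, and its summed level of the 8 genes was 886 CPM against 1641 to 3388 CPM in the other forebrain samples. Whether the makeup of that library bears on these estimates was not tested.

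**Figure D3:**
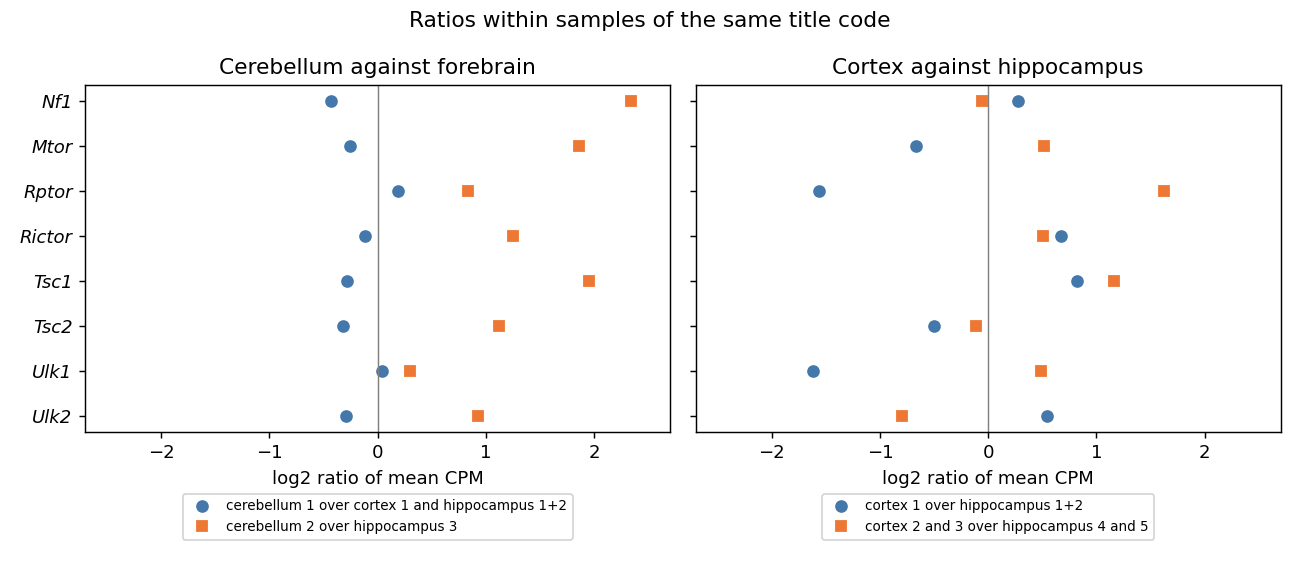
Log2 ratio of mean CPM for each gene (x axis) within samples that share a title code; left, cerebellum 1 over cortex 1 and hippocampus 1+2 (circles) and cerebellum 2 over hippocampus 3 (squares); right, cortex 1 over hippocampus 1+2 (circles) and cortex 2 and 3 over hippocampus 4 and 5 (squares). On the left all 8 squares lie above 0, up to 2.34 for Nf1, while 6 of the 8 circles lie below 0. With TMM factors these counts become 7 and 5. On the right Tsc1 and Rictor lie above 0 in both codes, with and without those factors. The shares of all tested rows with these signs were not counted.

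The second comparison set cortex against hippocampus. Again 0 of the 8 genes were called, where 0% of the 1720 tested rows were (edgeR; 68 rows and 0 of the 8 genes had an unadjusted p under 0.05). DESeq2 called 0 of 8 as well. Estimates were above 0 for 3 genes and below 0 for 5, with a median of -0.047 against -0.037 for all tested rows. Tsc1 had the largest estimate toward cortex, 0.75 on the log2 scale (SE 0.75; edgeR adjusted p = 0.999), with an interval from -0.72 to 2.23. Its CPM ratio pointed the same way in both title codes, at 0.82 and 1.17. Its estimate stayed between 0.58 and 1.06 in the 15 of 20 alternatives in which it passed the filter. Rictor had 0.39 (-0.99 to 1.78), with CPM ratios of 0.67 and 0.51 in the codes. Ulk1 had the largest estimate toward hippocampus, -0.91 (SE 0.77, adjusted p = 0.999, edgeR; interval -2.41 to 0.59), but its CPM ratios were -1.62 in the code of cortex 1 and 0.49 in that of cortex 2 and 3. Tsc2 had -0.40 (-1.52 to 0.71), with ratios of -0.50 and -0.12. Nf1 had 0.13 (-0.75 to 1.01), Mtor -0.042 (-1.13 to 1.05), Rptor -0.052 (-1.52 to 1.41) and Ulk2 -0.15 (-1.13 to 0.83). For Rptor the codes stood far apart, at -1.56 and 1.63, with 2 counts in cortex 1, 2 in hippocampus 4 and 0 in hippocampus 5. Leaving out single samples turned the sign of Nf1, Mtor, Rptor and Ulk2 here.

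**Figure D4:**
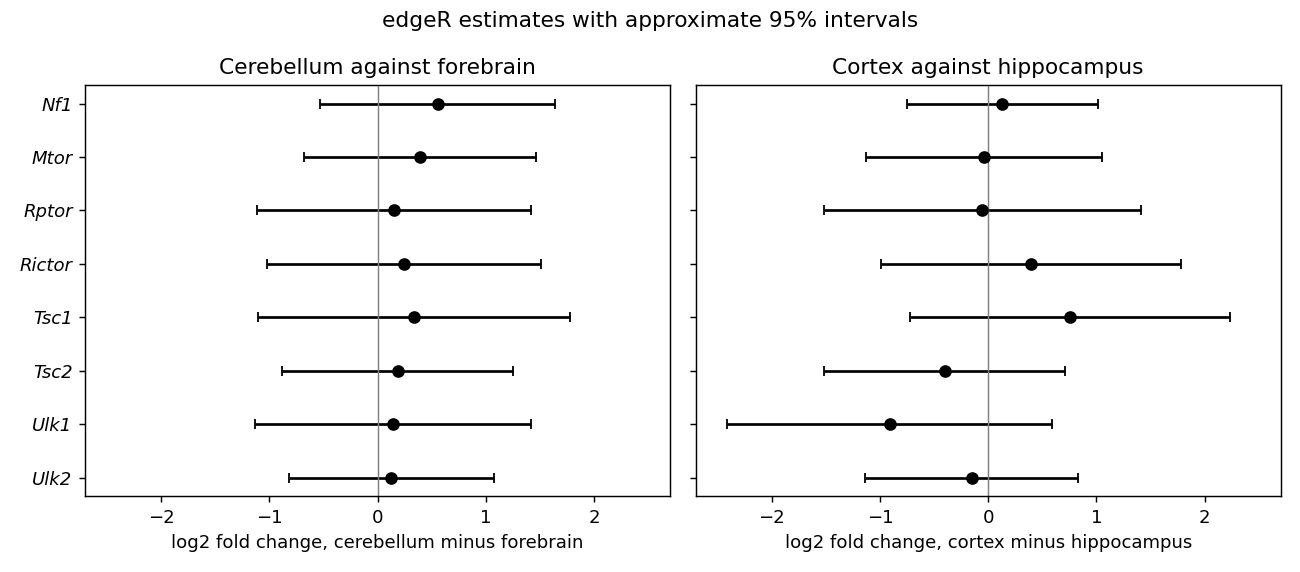
Log2 fold changes of the 8 genes from edgeR (x axis; left, cerebellum minus forebrain; right, cortex minus hippocampus), with points for estimates and bars for approximate 95% intervals. All 16 intervals include 0; the widest run to 1.78 for Tsc1 on the left and to -2.41 for Ulk1 on the right.

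Partners can be compared inside each library, where the library total cancels. Tsc2 had more counts than Tsc1 in 7 of the 9 samples, at 73.0% and 62.9% of the pair's counts in cerebellum, 64.3, 54.5 and 33.3% in cortex, and 81.8, 75, 50 and 75% in hippocampus. The share was 81.8% of 66 counts in hippocampus 1+2 (95% Wilson interval 70.9 to 89.3%) and 33.3% of 6 counts in cortex 3 (9.68 to 70.0%), so only the deep samples place it well. Part of the Tsc2 counts could belong to the overlapping Pkd1. Rptor and Rictor were near balance in cerebellum, at 50% (32.6 to 67.4%) and 52.9% Rptor (41.2 to 64.3%), and ran from 0 of 4 counts to 2 of 3 counts in forebrain. Ulk1 took the smaller share of the autophagy pair in 8 of the 9 samples, at 22.4 and 31.2% in cerebellum and 29.9 and 41.2% in hippocampus 1+2 and 3, and 75.0% of only 4 counts in cortex 3. These shares are not corrected for length. The coding sequence of Tsc2 is longer than that of Tsc1 (5424 and 3483 bases), though its longest transcript is shorter (6266 and 7702 bases), and per kilobase of coding sequence the means of the pair were close (43.3 and 40.5 CPM). Ulk1 and Ulk2 have coding sequences of 3171 and 3111 bases, and Rptor and Rictor of 4005 and 5124 bases.

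**Figure D5:**
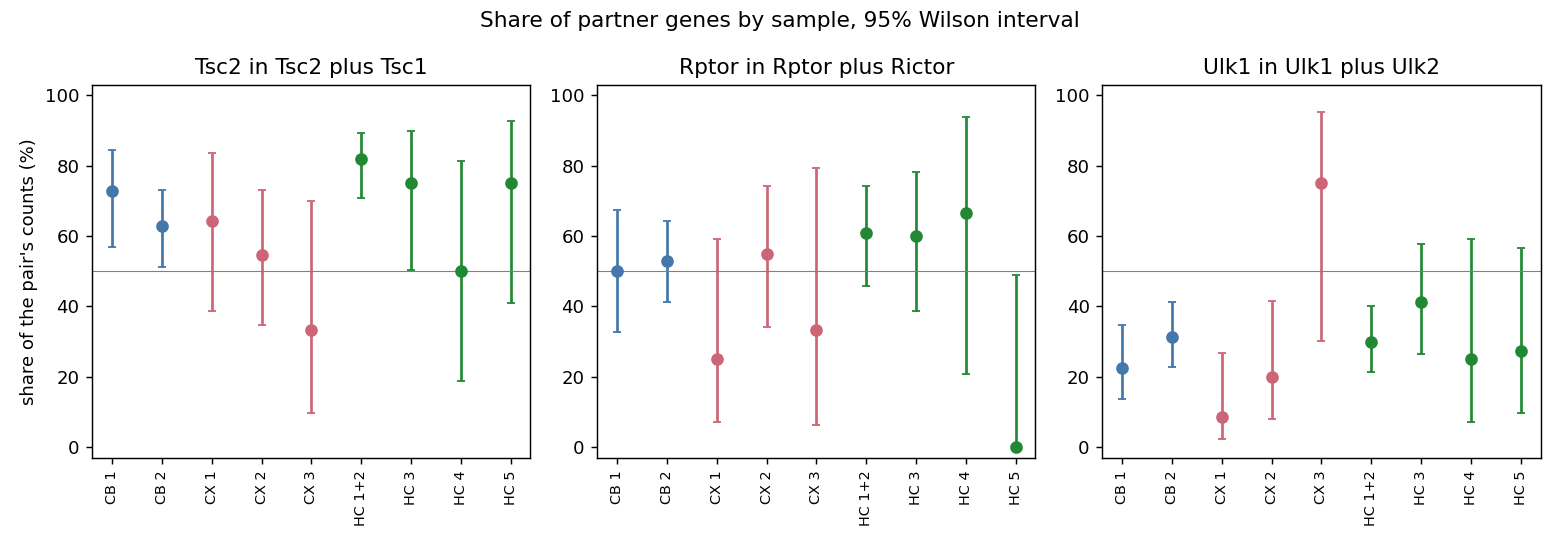
Share of the counts of a gene pair (y axis, percent) that belong to Tsc2, Rptor or Ulk1 in each sample (CB cerebellum, CX cortex, HC hippocampus); points are samples and bars 95% Wilson intervals. Tsc2 exceeds 50% in 7 samples, Ulk1 is under 50% in all samples but cortex 3, and intervals are wide where a pair has under 10 counts.

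The rest of the pathway was read from 6 lists with 137 genes, of which 136 had a row and 38 passed the filter. Between cerebellum and forebrain 0 were higher and 2 lower in edgeR, 5.26% of the 38 against 3.78% of all tested rows, with a median log2 fold change of -0.022, and between cortex and hippocampus 0 were called in either direction. Of the 9 further subunits and assembly factors of the mTOR complexes 0 passed the filter; the highest were Mapkap1, an mTORC2 subunit, at a mean of 56.0 CPM over the 9 samples, Tti1, an assembly factor, at 42.4 CPM and Deptor, an inhibitor subunit, at 41.9 CPM. Each of the 9 lay below the lowest of the 8 genes (Rptor, 118 CPM) on CPM without regard to length. Levels of list genes were not compared per length, so this order does not rank the genes. Of the 27 amino acid sensing genes with a row, 2 passed the filter and 0 were called. Depdc5, a GATOR1 subunit, led with 173 CPM, and Fnip2, a folliculin partner that did not pass the filter, averaged 80.6 CPM.

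Upstream of Rheb, 11 of 25 genes were tested and 0 called in either comparison. Gsk3b, a kinase that Akt inhibits, averaged 337 CPM over the 9 samples, with a log2 difference of -1.003 between cerebellum and forebrain (95% interval -2.05 to 0.041; edgeR adjusted p = 0.314). Among mTOR substrates and translation genes 4 of 16 were tested and 0 called, with Eif4g1, the initiation scaffold, at 498 CPM, Larp1, a regulator of ribosomal protein mRNAs, at 242 CPM and the kinase gene Prkca at 158 CPM. Among 23 autophagy genes 7 were tested and 0 called. Wdfy3, a giant adaptor for selective autophagy, had a cortex mean of 1405 ± 605 CPM (SD, n = 3), a hippocampus mean of 994 ± 731 (n = 4) and a cerebellum mean of 1304 ± 52.6 (n = 2). Epg5, a tether for autophagosomes, averaged 253 CPM and Atg2b, a lipid transfer protein, 175 CPM.

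The only calls fell among Ras regulators and the MAP kinase cascade, where 14 of 36 genes were tested and 2 were lower in cerebellum. Rasgrp1, an exchange factor that activates Ras, was at 62.9 and 55.7 CPM in cerebellum, at 814, 681 and 84.0 CPM in cortex, and at 460.5, 136, 273 and 790 CPM in hippocampus. Cerebellum lay below every forebrain sample, a pattern of 4.3% of tested rows, although cortex 3 came close with 1 count. The edgeR estimate for Rasgrp1 was -2.53 (SE 0.59, adjusted p = 0.00097). The Rasgrp1 call was lost in edgeR without cerebellum 1 (-1.73, adjusted p = 0.826), without cerebellum 2 (-3.02, adjusted p = 0.0662) and without cortex 1 (-2.13, adjusted p = 0.252). It was also lost on library totals alone (-2.41, adjusted p = 0.0668), with no filter (-2.16) and with a looser filter (-2.16), where the estimates stayed near the -2.53 above, and it held in 14 of 20 alternatives. Without the title code as a block 6 of the 14 tested genes of this list were called, as were 156 of all 1720 tested rows. Among the 6, Rasgrp1 and Rasgrf2 (an exchange factor) were lower in cerebellum. Dab2ip (a Ras GTPase-activating protein) and Ptpn11 (a phosphatase that aids Ras activation) were higher. Rasgrf1, a calcium-dependent exchange factor, was tested and not called, with 386 CPM over the 9 samples. Telencephalic excitatory markers summed to 597 and 679 CPM in cerebellum and 1009 to 4051 CPM in forebrain, with 10 of 10 markers in the table; their part in this result was not tested.

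The rows whose log2 (CPM plus 50) followed Nf1 most closely over the 9 samples were Ank2, an ankyrin of the membrane skeleton (Pearson r 0.99), the kinesin gene Kif1b (0.98), Cyfip2, a member of the WAVE complex (0.97), Ash1l, a histone methyltransferase (0.96), and Kif5c, a kinesin heavy chain (0.96). All 5 were low in hippocampus 3, from 119 CPM for Ash1l to 707 CPM for Ank2. Their region means in hippocampus ran from 443 to 2912 CPM. Because the 5 rows were chosen for following Nf1, itself low in hippocampus 3, this is not a separate result. These correlations are over 9 samples that differ in depth and makeup, and they describe the samples. Of the other 7 genes, Tsc2 had r 0.76 with Nf1, Mtor 0.73, Rictor 0.71, Ulk2 0.55, Tsc1 0.41, Rptor -0.16 and Ulk1 -0.17. Rptor had only 0 to 36 counts a sample and Ulk1 2 to 29, so whether they follow Nf1 cannot be judged. Over all 28 pairs of the 8 genes the median r was 0.22, from -0.47 to 0.80. In hippocampus 3 the ratio to hippocampus 1+2 was 0.166 for Nf1, 0.206 for Mtor, 0.598 for Ulk1 and 0.533 for Rptor. These ratios rest on 24, 10, 14 and 12 counts in hippocampus 3. Over all 1720 tested rows the median log2 ratio of these samples, with 50 CPM added to both, was -0.40, and over the 8 genes it was -0.99.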

How the data were processed

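Per the labels' protocols, RNA recovered with FMRP after proteinase digestion was converted to libraries by small RNA ligation. The authors deposited one table of raw fragment counts per gene symbol, used as deposited. Per the submitters' processing notes, Bowtie 0.12.7, Picard and mm10 were used; the counting program, annotation, strand and duplicate handling are not in the sources used here. All 11 columns matched a sample title. The library of conflicting labels entered alternatives only; the series' design text counts 4 cortex and 5 hippocampus libraries, which would make it cortex. The labels name no animals, so the replicate spread behind each p-value may be technical only. Hippocampus 1 and 2 (chi-square per degree of freedom 1.03, p = 0.191; other pairs of a region from 1.51 to 22.1) were summed.

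Library totals with TMM factors, filterByExpr by region, the title code as a block and Benjamini-Hochberg adjustment over 1720 rows were used in 1 fit of 9 samples (edgeR 4.0.16, R 4.3.3, 4 residual degrees of freedom); DESeq2 1.42.0 was an alternative. The labels do not say what the codes are. Across genes, the deviations of same-code samples of different regions had a median r of 0.13 over 8 pairs (-0.058 to 0.46). For samples of different codes the median r was -0.044 over 18 pairs (-0.27 to 0.10), so the ranges overlap. CPM divided by TMM factors was added after seeing the data. SE is the absolute log2 fold change over the root of F, and intervals on it are approximate. The edgeR tests and intervals used 6880 degrees of freedom, since the spread was pooled over the 1720 rows. They therefore do not reflect the 4 residual degrees of freedom of a single gene. Gene locations, lengths and sequences are from GENCODE M21 (GRCm38). The members, lists and tests were chosen with earlier results of these data known. Named genes are the 8 genes, list genes past the threshold, the 3 highest of each list, markers, and the 5 rows most like the highest gene; Pkd1 and other overlapping genes were added by position, and genes called in few numbers elsewhere after their values were seen. Some genes that this rule names are not reported here, while counts of genes include them.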

Additional observations from a re-analysis of the deposited data

Results flagged for a closer look

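The library whose title names cortex and whose tissue label names hippocampus (30344 counts) entered the comparisons only as an alternative, and 5 of the 8 genes had more than 3 counts there, the limit that a count of 0 allows. Nf1 was at 857 CPM, Mtor at 297 CPM and Ulk1 at 264 CPM, and Rptor and Rictor were both at 132 CPM. Nf1 and Mtor lay within the range of both regions. Ulk1 lay above every cortex and hippocampus sample, with 8 counts (95% interval 114 to 519 CPM), and took 72.7% of the 11 counts of the Ulk1 and Ulk2 pair (Wilson interval 43.4 to 90.3%).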

How the results depend on the processing

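Over 20 alternative settings the 8 genes gave 280 estimates, and 0 passed the threshold (lowest adjusted p = 0.604); 47 had the opposite sign. For cerebellum against forebrain these were, without cortex 3, hippocampus 3 and hippocampus 4, -0.24 (Mtor), -0.0093 (Rptor), -0.086 (Tsc1), -0.18 (Tsc2), -0.25 (Nf1) and -0.069 (Ulk2); with no replicate block, -0.080 (Nf1), also with the library of conflicting labels as cortex (Nf1 -0.078, Ulk1 -0.091) or hippocampus (Nf1 -0.11). Leaving out 1 sample gave ranges of -0.16 to 1.48 (Mtor), -0.83 to 0.58 (Rptor), -0.025 to 1.15 (Tsc1), -0.14 to 0.91 (Tsc2), -0.21 to 1.92 (Nf1), -0.25 to 0.34 (Ulk1) and -0.035 to 0.60 (Ulk2, -0.018 without hippocampus 1+2). For cortex against hippocampus they were 0.27 (Mtor), 0.30 (Rptor) and 0.092 (Ulk2) on library totals, 0.29 and 0.41 (Mtor, Rptor) without the filter, 0.13 and 0.19 with the looser filter, 0.033 (Rptor, DESeq2), 0.023 (Mtor, conflicting library as cortex), 0.40 (Ulk2, only libraries whose titles start with s), and -0.047 (Nf1) and 0.073 (Ulk2) without the 3 libraries; leaving out 1 sample gave -0.50 to 0.60 (Mtor, 0.49 without hippocampus 1+2), -1.13 to 1.74 (Rptor), -0.13 to 0.52 (Nf1) and -0.59 to 0.086 (Ulk2). Rictor in both comparisons, and Tsc1, Tsc2 and Ulk1 for cortex against hippocampus, kept their sign wherever tested. That was 13 of the 20 alternatives for Rictor, 15 for Tsc1, 18 for Ulk1 and 20 for Tsc2. Rictor did not pass the filter without cerebellum 2 or without hippocampus 3, so its sign in those fits is not known. Library totals moved the median of all rows to 0.12 and 0.24. The 132 calls became 87 (DESeq2), 54 (library totals, 37 higher and 17 lower), 1 (no filter, Gabra6), 18 (looser filter), 85 (titles with s only) and 215 (without the 3 libraries), and 2 to 176 with 1 sample left out (2 without cerebellum 1, Chst1 and Bcl11b; 17 without cerebellum 2; 15 without cortex 1; 81 without hippocampus 1+2). With no replicate block they were 156. The 0 calls between cortex and hippocampus became 1, Zbtb20, with DESeq2, with 10 separate libraries and with the conflicting library as cortex, 0 to 1 with 1 sample left out (1 without hippocampus 3), and 3 without the 3 libraries (Zbtb20, Epha6 and Kcnh1). Per coding rather than transcript length, Rptor moved to 29.4, Rictor to 27.2, Tsc1 to 40.5, Ulk1 to 42.8 and Ulk2 to 112 CPM per kilobase. The causes were not tested. Library sizes recomputed after the filter, an alternative chosen after seeing the data, changed no sign. No gene of the 8 fell under the filter, so the permutation test planned for such genes was not run. Dividing CPM by TMM factors, also chosen after seeing the data, turned 3 ratios within title codes: Rictor 0.090 (cerebellum 1 against its code), Ulk1 -0.31 (cerebellum 2 against hippocampus 3) and Nf1 -0.035 (cortex 1 against hippocampus 1+2). Cortex 3 had 1 to 9 counts per gene.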
